A study of Mus musculus with 11 samples.

Results

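The genes described here belong to the contraction machinery of the myoepithelium, the layer of basal epithelial cells that wraps the alveoli and ducts of the mammary gland. They are 10 genes, Cnn1, Cnn2, Mylk, Myh11, Actg2, Oxtr, Trp63, Lmod1, Smtn and Myl9, a list of names made with earlier results of these data known, out of 14847 named genes in the expression table. All 10 were found, at 13 of the table's 30305 loci. The study followed STAT5A binding and the promoter mark H3K4me3 in the mammary gland of wild-type mice from pregnancy to parturition. Its labels describe 11 samples, with transcripts labelled at parturition. The values below come from 1 library, the poly(A) RNA-seq of whole mammary tissue freed of lymph nodes, taken at parturition (L1). These mice carried the mixed strain background 129SV::FVB/N::C57BL/6, and the labels do not say how many animals gave tissue. With 1 library there is no replicate error, so no value below has an SD and no difference was tested. Expression at other stages was not analysed here.

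Milk ejection depends on these cells. Suckling releases oxytocin, which binds its receptor on myoepithelial cells. The receptor acts through Gq-type G proteins to raise intracellular calcium, calmodulin then activates myosin light chain kinase, and phosphorylation of the regulatory light chain lets smooth muscle myosin pull on actin. Myoepithelial cells share most of this machinery with vascular smooth muscle, while p63 (Trp63) and the keratins 5 and 14 mark them as basal epithelium. Since the tissue was analysed in bulk, fewer cells of a type and less RNA per cell cannot be told apart.

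Many genes of contractile cells are known targets of SRF, a transcription factor that binds the CArG box, and the stretch before the start site is shown here for 3 genes: Myl9, which had the highest level of the 10, and the calponin genes Cnn2 and Cnn1, which are paralogs at different levels. RefSeq promoter sequences of the build GRCm38.p6, from 250 bases before to 50 after the start site, were at hand for 7 of the 10 genes (Myl9, Cnn1, Mylk, Oxtr, Cnn2, Smtn and Lmod1). The printed sequences are the 250 bases before the start, 5′ to 3′ on the plus strand, with the CArG box in capitals. They lie at chr2:156775214-156775463 for Myl9, at chr10:79988350-79988599 for Cnn2 and at chr9:22099003-22099252 for Cnn1.
Myl9: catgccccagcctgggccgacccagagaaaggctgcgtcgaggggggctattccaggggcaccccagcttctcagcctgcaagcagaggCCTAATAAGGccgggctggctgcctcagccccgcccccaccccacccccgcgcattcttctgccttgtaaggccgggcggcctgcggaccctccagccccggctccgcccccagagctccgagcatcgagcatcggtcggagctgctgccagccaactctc
Cnn2: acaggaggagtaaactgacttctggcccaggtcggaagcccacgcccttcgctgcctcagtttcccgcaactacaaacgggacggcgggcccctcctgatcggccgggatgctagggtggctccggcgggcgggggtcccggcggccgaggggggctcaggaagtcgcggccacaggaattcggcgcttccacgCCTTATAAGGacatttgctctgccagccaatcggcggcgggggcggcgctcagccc
Cnn1: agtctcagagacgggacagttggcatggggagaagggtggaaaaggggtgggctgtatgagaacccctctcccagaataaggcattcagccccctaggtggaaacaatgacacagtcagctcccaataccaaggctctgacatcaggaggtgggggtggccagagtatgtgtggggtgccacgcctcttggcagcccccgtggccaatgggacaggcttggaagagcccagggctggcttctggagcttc

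The Myl9 box, CCTAATAAGG, began 161 bases before the start site, and the Cnn2 box, CCTTATAAGG, began 56 bases before it. In the same window none of the other 5 sequences, Cnn1 included, held an exact CArG box. Thus 2 of the 7 sequences (28.6%) had one, against 1.63% of all 32851 promoter sequences of this length and 1.35% of the 13286 that belong to named genes of the table. The box was not particular to these genes. Among lists described below, it was in 3 of 4 sequences of the actin family and 2 of 8 of skeletal muscle markers. It was also in 1 of 8 of transcription regulators and 2 of 24 of contractile and adhesion genes. The receptor to calcium, phosphatase, basal, vascular, endothelial, fibroblast and luminal lists had none. The box reads as the same pattern on both strands. With 1 letter off allowed, 3 of 7 (42.9%) had a match against 21.1% of all promoters and 17.1% of those of named genes, Lmod1 being the added gene. Skeletal muscle markers (7 of 8) and endothelial markers (3 of 5) had larger shares in this form. So did 2 family lists, the actin family (4 of 4) and the regulatory light chains (2 of 3, Myl9 included). The other pathway and cell type lists ran from 8.33% to 37.5%. This motif search, in either form, was added after the data were seen. A match is a description of letters and was not tested for binding, and the lack of one says only that these letters are not in this window.

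The GAS motif TTCNNNGAA, the site type of STAT5 and its own reverse complement, was in none of the 7 sequences, in 8.30% of all promoters and in 7.13% of those of named genes. TATAAA, searched on both strands, was in none of the 7, in 13.6% of all promoters and in 8.0% of those of named genes. The share of G and C bases ran from 53.3% in Mylk to 70.7% in Cnn2, with a median of 59.3%, against 52.7% over all promoters and 60% over those of named genes. The deposited STAT5A and H3K4me3 lists are placed in mm9, another build than these sequences, and were not assigned to the 10 genes here.

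The 10 genes covered a 23.9-fold range of levels in the gland at parturition, from Myl9 at the top to Lmod1 at the bottom. Levels are in FPKM, a unit meant to correct fragment numbers for length and for the mapped total. The tool behind the values is not named, so the length it used is unknown. Some genes are also split over several loci, so comparisons of level between genes are approximate. The median of the 10 was 20.97 FPKM, 5.37 times the median of 3.90 FPKM over all named genes. Of the 10, 8 lay above that median, 6 above the upper quartile of 11.4 FPKM and 4 above the 90th percentile of 30.2 FPKM. At or above 10 FPKM stood 7 of the 10, against 27.9% of all named genes, with Smtn just over that line and Actg2 just under it. All 10 reached 1 FPKM (73.6% of named genes did), 8 reached 5 FPKM (44.3%), and Myl9 and Cnn1 were the 2 at or above 50 FPKM (5.81%).

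**Figure D1:**
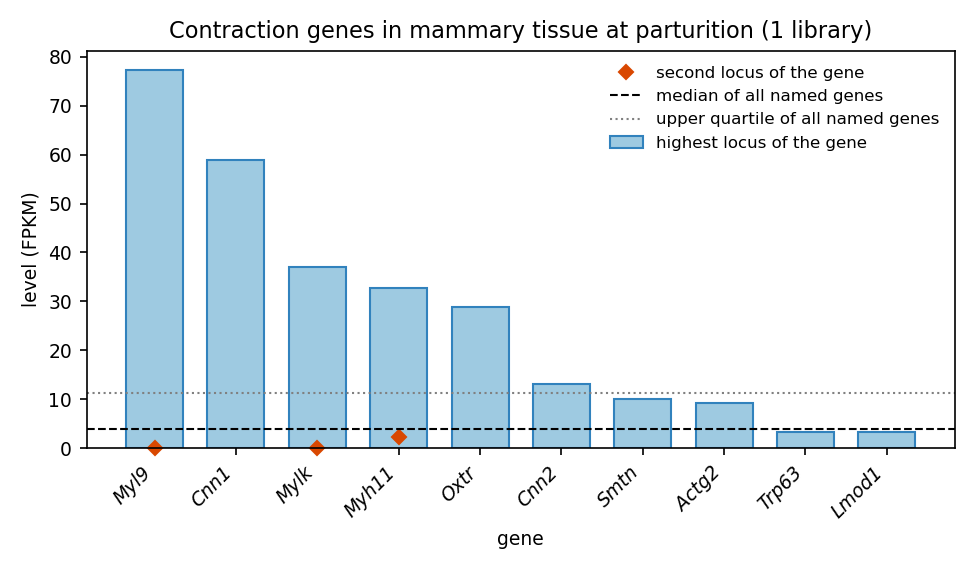
Level in FPKM (vertical axis, linear, from 0) of each of the 10 genes in the L1 library, 1 bar a gene for its highest locus, with diamonds for the second locus of Myl9, Mylk and Myh11. Dashed and dotted lines mark the median (3.90 FPKM) and the upper quartile (11.4 FPKM) of all named genes. Trp63 and Lmod1 are the bars under the dashed line, and 5 bars stand well above the rest.

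Contraction starts at the receptor. Oxtr, which encodes the oxytocin receptor, stood at 28.8 FPKM, with 89.5% of named genes lower. Its relative Avpr1a, a vasopressin receptor, was at 0.12 FPKM, and Avpr1b and Avpr2 were not analysed here. Oxtr was thus the fifth of the 10 genes in level, 2.29 times as high as Gnaq and 1.39 times as high as Gna11, which encode the G protein subunits it is known to couple to.

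The kinase step and its substrate were both among the higher genes. Mylk, which encodes the calcium and calmodulin dependent myosin light chain kinase, was at 37.1 FPKM, with a second locus of the gene at 0.15. Mylk2 and Mylk4, its relatives known from striated muscle, were at 0.59 and 0.44 FPKM, and Mylk3 was not analysed here. Myl9, which encodes the regulatory light chain that this kinase phosphorylates, had the highest level of the 10 at 77.3 FPKM, and its second locus was listed at 0. Myl12b, the gene of a closely similar light chain, was at 16.4 FPKM, so Myl9 lay 4.72 times above it. Myl12a was not analysed here, and the labels do not say how reads from such similar genes were divided.

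For the motor itself, Myh11 encodes the smooth muscle myosin heavy chain and stood at 32.7 FPKM, with a second locus at 2.33. Of the nonmuscle heavy chains, Myh9 was at 17.9 FPKM, Myh14 at 1.32 and Myh10 at 1.26. Myh11 was therefore 1.83 times as high as Myh9 and 25.9 times as high as Myh10. The ratio to Myh9 depended on the locus taken for each gene, falling to 1.23 with loci summed, since Myh9 has a second locus too. Kinase and motor were close in level, Mylk 1.14 times Myh11, and the light chain Myl9 stood 2.37 times above Myh11.

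The actin of the list was low for its family. Actg2, which encodes gamma smooth muscle actin, was at 9.29 FPKM, against 355.8 for the cytoplasmic actin gene Actb and 285 for Actg1, 38.3 and 30.7 times as much. Acta1, the skeletal muscle actin gene, was at 25.03 FPKM, 2.69 times Actg2, and the cardiac gene Actc1 at 0.06. Acta2, the alpha smooth muscle actin gene and the usual actin marker of myoepithelium, was not analysed here. Actin genes are nearly identical in their coding parts, so the split of reads among them is uncertain.

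**Figure D2:**
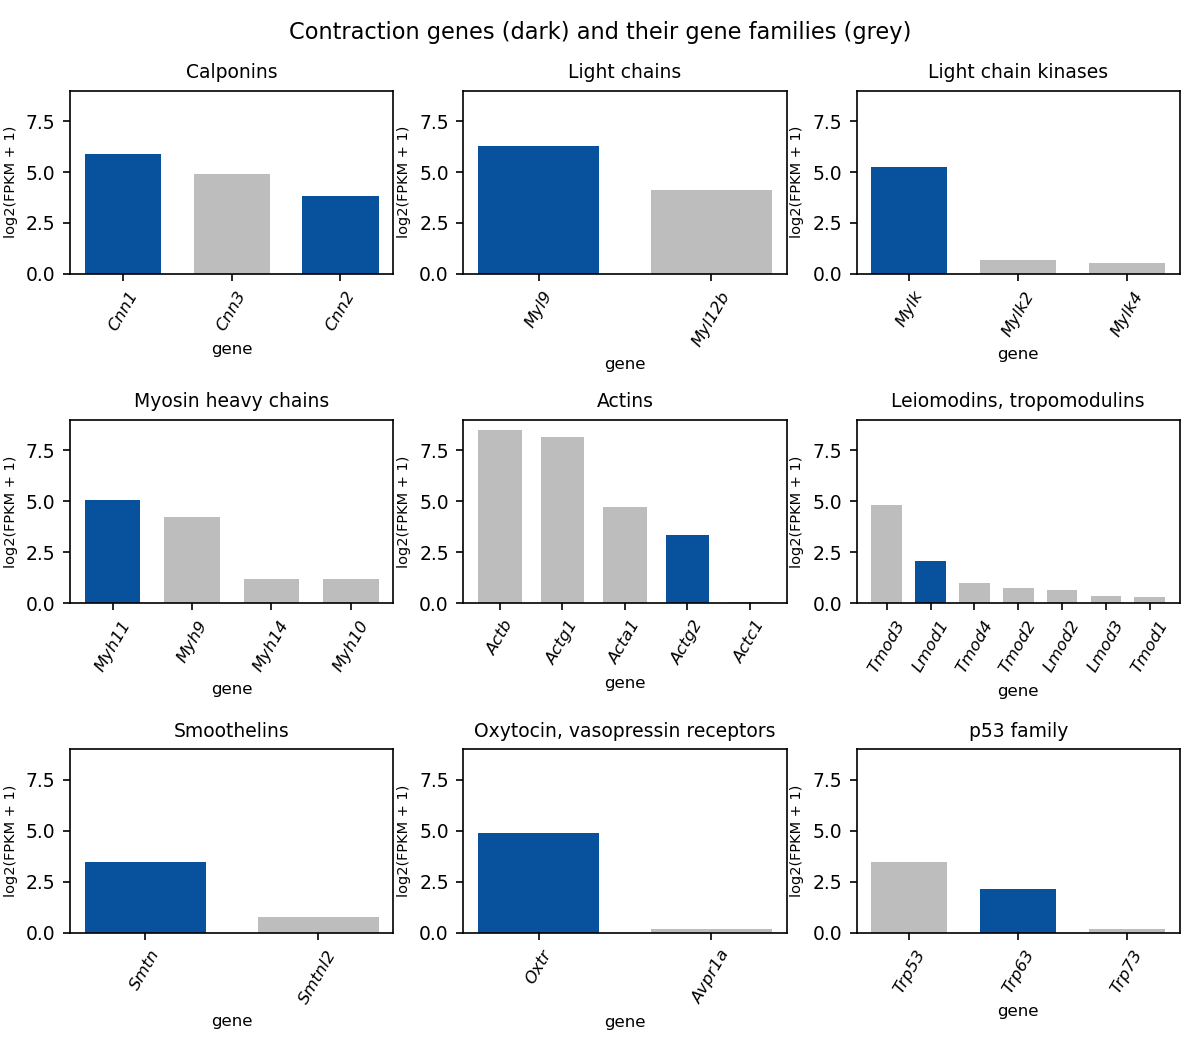
Levels on the log2(FPKM + 1) scale (vertical axes, the same in all 9 panels) of the 10 genes (dark bars) and the measured relatives in their gene families (grey bars), 1 library. Cnn1, Myl9, Mylk, Myh11, Smtn and Oxtr are the highest of their panels, while Cnn2, Actg2, Trp63 and Lmod1 each stand below a relative.

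Genes of the thin filament and its regulators were spread over the whole range. Cnn1, which encodes the basic calponin of smooth muscle, an actin-binding inhibitor of the myosin ATPase, was at 59.0 FPKM, the second of the 10. Cnn2, a calponin also known from nonmuscle cells, was at 13.1 FPKM, and Cnn3, the acidic calponin, at 28.8. Cnn1 was thus 4.49 times as high as Cnn2 and 2.05 times as high as Cnn3. Smtn, which encodes smoothelin, an actin-binding protein of contractile smooth muscle, was at 10.1 FPKM, and its relative Smtnl2 at 0.68. Lmod1, which encodes the smooth muscle leiomodin that nucleates actin filaments, was the lowest of the 10 at 3.24 FPKM. Among its relatives Tmod3, a tropomodulin that caps filament ends in many cell types, was 8.47 times as high at 27.4 FPKM, and the other 5 (Tmod4, Tmod2, Lmod2, Lmod3 and Tmod1) ranged from 0.25 to 0.97 FPKM.

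Trp63 encodes p63, the transcription factor required for basal epithelium, and is the only one of the 10 with a role in the nucleus and not in the filaments or their control. It was at 3.37 FPKM, with 46.8% of named genes lower, next to Lmod1. Trp53 was at 9.90 FPKM, 2.94 times Trp63, and Trp73 at 0.12. The keratin genes Krt14 and Krt5, known targets of p63, were 16.1 and 11.3 times above Trp63.

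In order of level, the 10 genes ran Myl9, Cnn1, Mylk, Myh11, Oxtr, Cnn2, Smtn, Actg2, Trp63 and Lmod1. The widest steps lay between Oxtr and Cnn2, 2.19-fold, and between Actg2 and Trp63, 2.76-fold. Neighbours elsewhere in the order were closer, down to 1.09-fold between Smtn and Actg2 and 1.04-fold between Trp63 and Lmod1, and without replicates none of these steps can be set against a spread. The 5 highest genes held 85.7% of the summed level of the 10, which came to 274 FPKM. That was 0.0253% of the summed FPKM of named genes, a sum that includes Csn2 at 170861 FPKM and Wap at 63664. With 1 library, no gene of like pattern could be looked for.

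**Figure D3:**
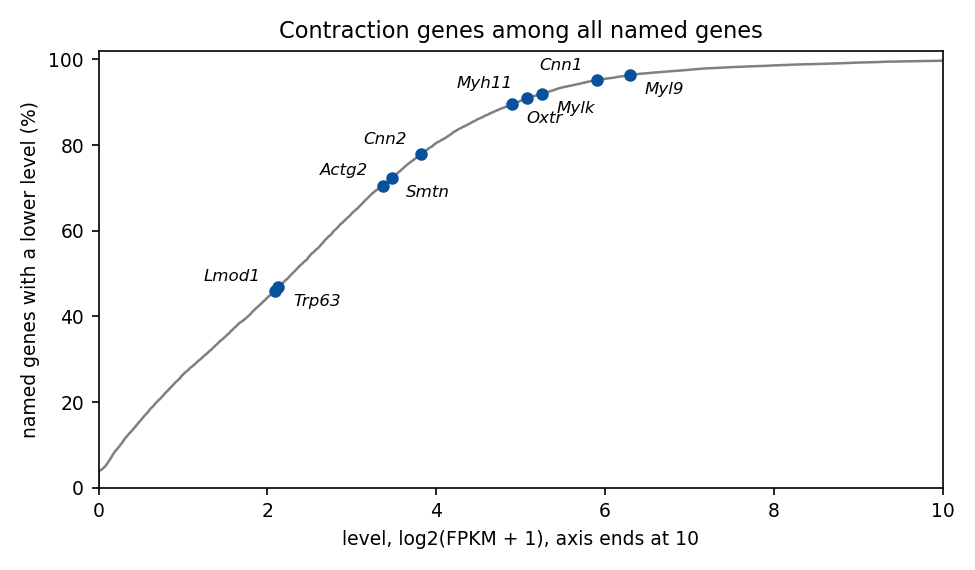
Share of the 14847 named genes with a lower level (vertical axis, percent) against level on the log2(FPKM + 1) scale (horizontal axis, ending at 10), as a grey curve, with the 10 contraction genes as points, 1 library. Myl9 sits highest, with 96.3% of named genes lower, and Trp63 and Lmod1 sit just under the middle, at 46.8% and 46.0%.

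Of the 10 genes, 7 had 1 locus and 3 had 2, Myl9, Mylk and Myh11. Over all named genes 25.8% had several loci. In none of the 3 did the second locus reach the median of all named genes. None of the 117 loci that carry several symbols held one of the 10. In the gene table of GRCm38.p6, noncoding genes overlap the spans of Mylk, Actg2, Trp63 and Smtn, namely 1700119H24Rik and E130310I04Rik, Gm38844, Gm24928, and Gm11946. Their levels were not analysed here, and the labels do not say whether reads were counted by strand.

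The rest of the contraction pathway was described from lists of other genes, and the cell source of their levels was not tested. The contractile and adhesion list had a median of 19.5 FPKM over 15 of its 20 genes, close to the 20.97 FPKM of the 10. It was led by the tropomyosin genes Tpm2 at 99.8 FPKM, Tpm1 at 86.9 and Tpm3 at 73.95 and by the alpha-actinin gene Actn4 at 70.1, and 10 of the 15 reached 10 FPKM. Acta2, Tagln, Myl6, Vcl and Csrp1 were not analysed here. From the receptor to calcium, 6 of 18 genes reached 10 FPKM, against 27.9% of all named genes, and the median was 4.72 FPKM. The calmodulin genes Calm2 at 207 and Calm3 at 31.4 FPKM were among the highest, as was the calcium pump gene Atp2a2 at 22.9. The voltage-gated calcium channel genes Cacna1c and Cacna1h stood at the bottom with 0.24 and 0.21 FPKM (named after their values were seen).

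Opposite the kinase, 6 of 10 genes of the light chain phosphatase and its regulators reached 10 FPKM, against 27.9% of all named genes. Their median was 11.2. Rhoa led at 96.9 FPKM, followed by Ppp1cb, the catalytic phosphatase subunit, at 69.5, Arhgef1 at 38.9 and Ppp1r14b at 14.5. Ppp1cb was thus 1.87 times as high as Mylk. Transcription regulators of the smooth muscle programme were lower. None of the 9 measured reached 10 FPKM, and their median was 2.49. Mef2a was at 8.48 FPKM, Mef2d at 5.62, Srf at 5.37 and its cofactor Mkl2 at 5.13. Myocd, the cofactor myocardin of cardiac and smooth muscle, was at 0.10 FPKM (named after its value was seen).

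Which cells the transcripts came from was looked at through marker lists. Basal epithelial markers were spread widely, from 0.28 to 82.1 FPKM, with a median of 9.37 FPKM. Of these 10 markers 5 reached 10 FPKM, against 27.9% of all named genes. Itga6 stood at 82.1 FPKM, Itgb1 at 66.4, Krt14 at 54.2 and Krt5 at 37.9. At the low end were Egfr at 3.91, Nrg1 at 3.19, Itgb4 at 2.77, Snai2 at 2.48 and Cdh3 at 0.28 (named after their values were seen). Cnn1 was 1.09 times Krt14 and 1.55 times Krt5. Of vascular smooth muscle and pericyte markers 1 of 10 reached 10 FPKM, Rgs5 at 21.2, followed by Mcam at 6.93, Des at 5.31 and Notch3 at 4.75. With loci summed, Notch3 came to 11.9 FPKM and 2 of 10 reached 10 FPKM. That list had a median of 2.23 FPKM, ran from 0.48 to 21.2 and summed to 46.6, with none of its genes at 0. Myh11, Cnn1, Smtn, Lmod1, Actg2, Mylk and Myl9 are also known from those cells, and the part of vessels in their levels was not tested.

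Markers of other cells of the tissue were measured as well. The 6 endothelial markers had a median of 8.46 FPKM, and their 4 highest, from Pecam1 (15.1 FPKM) through Cdh5 and Egfl7 to Kdr (7.05 FPKM), lay below Oxtr. Tek at 3.45 and Vwf at 0.77 FPKM were the lowest of them (named after their values were seen). Fibroblast markers had a median of 29.1 FPKM over 6, with Dcn at 82.6, Col3a1 at 75.03, Col1a2 at 34.4 and Col1a1 at 23.8. Lum was at 22.4 and Pdgfra at 2.40 FPKM (named after their values were seen). The 10 skeletal muscle markers had a median of 23.4 FPKM, near that of the 10 contraction genes, and their 4 highest, Tnnt3, Tnni2, Ckm and Mylpf, lay between 26.8 and 37.2 FPKM. The myosin heavy chain genes Myh4, Myh2 and Myh1 were the lowest, at 8.37, 1.34 and 0.82 FPKM (named after their values were seen). Luminal and alveolar genes had a far higher median, 179 FPKM over 9. Their 4 highest were Csn2 at 170861 FPKM, Wap at 63664, Elf5 at 577 and Krt19 at 244. The list ran down to Cldn7 at 47.97 and Cldn3 at 25.04 FPKM (named after their values were seen), within the range of the 10 genes. The median of the 10 contraction genes was 0.12 times that of the luminal list.

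**Figure D4:**
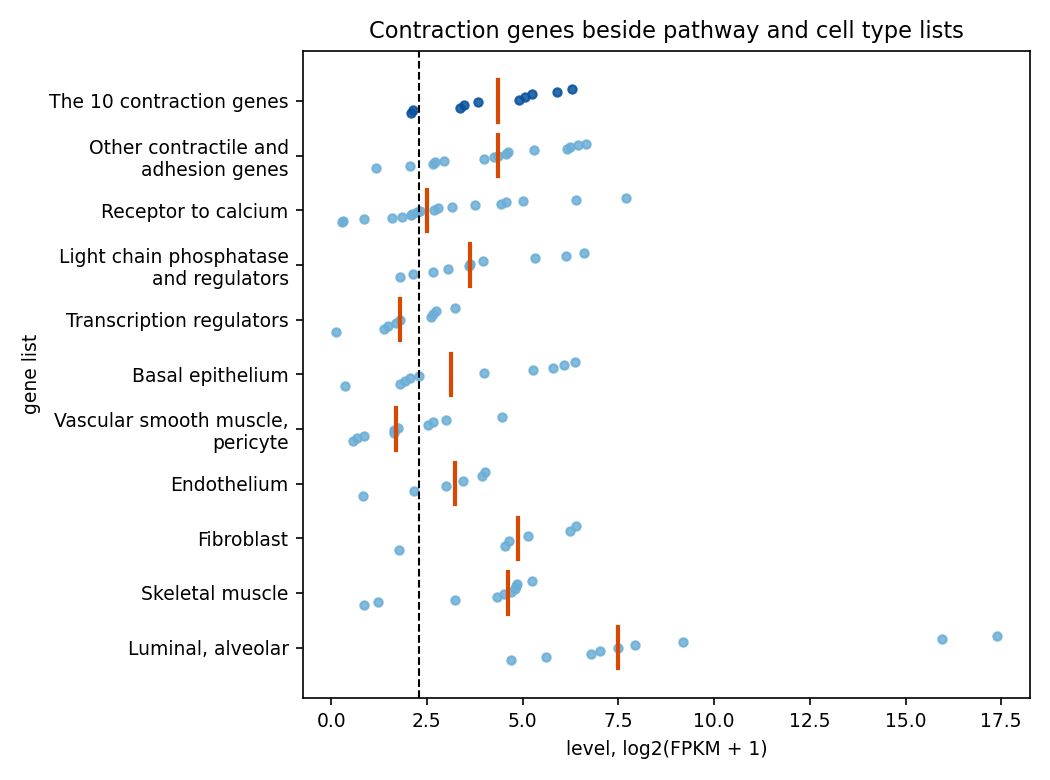
Levels on the log2(FPKM + 1) scale (horizontal axis) of the 10 contraction genes and of 4 pathway lists and 6 cell type lists (rows), 1 point a gene, 1 library. An orange bar marks the median of each list's log2 values, and a dashed line the median of all named genes. Medians quoted next are of FPKM, and for a list with an even number of genes the bar can lie lower. The median of the contraction genes (20.97 FPKM) lies near those of the skeletal muscle list (23.4 FPKM) and the other contractile genes (19.5 FPKM), and above that of the vascular list (2.23 FPKM), with overlapping ranges.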

How the data were processed

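RNA of 1 library of mammary tissue at parturition was analysed. Per the labels' protocols, poly(A) RNA was made into TruSeq libraries and sequenced on an Illumina HiSeq. The submitters' processing notes name CASAVA, TopHat and the build mm9. The authors deposited FPKM per locus of a transcript assembly. No label names the tool behind these values. The table holds no counts, so depth is unknown.

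From these values a gene took its highest locus, with loci of several symbols left out. Percentiles are shares of named genes with a lower level. No minimum was applied, and log2 values carry a pseudocount of 1. All 10 genes, the 4 highest genes of each pathway or cell type list and all family relatives are named, except for a value that is not reported here. The genes and lists were chosen with earlier results of these data known. Scripts ran in Python 3.11.15 with pandas 2.3.3 and were tested on simulated data.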

Additional observations from a re-analysis of the deposited data

How the results depend on the processing

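Summing loci gave Mylk 37.2 and Myh11 35.01 FPKM, and the median locus gave Myl9 38.7, Mylk 18.6 and Myh11 17.5, because each has a low second locus. Levels of the other 7 genes and the median of the 10 were equal under these settings, apart from the median under the median locus, which was not computed. At 50 FPKM 2 of the 10 remained, against 5.81% of all named genes. At 1 and 5 FPKM, which 73.6% and 44.3% of named genes reached, the counts were 10 and 8. The median log2(FPKM + 1) of the 10 lay 2.07 above that of all named genes, and this difference was 2.29 with a pseudocount of 0.1, 1.95 with loci summed and 1.40 among genes at or above 1 FPKM. With loci summed, Myh11 stood 1.23, 27.7 and 26.5 times above Myh9, Myh10 and Myh14. Adding loci of several symbols changed no family ratio, since none held a family gene. Medians with loci summed were 22.6 for the contractile list, 6.29 for receptor to calcium and 2.67 for transcription regulators. Among genes at or above 1 FPKM, medians were 5.86 for receptor to calcium, 3.81 for transcription regulators, 14.8 for basal, 4.75 for vascular, 9.88 for endothelial and 25.03 for skeletal muscle markers. The percentile of every one of the 10 genes was lower, by 1.32 to 19.4 points, among genes at or above 1 FPKM. That direction is set by the filter, since all 10 genes lie above 1 FPKM and only lower genes are removed. With loci summed for every gene, percentiles were 0.03 to 2.11 points lower. Against single-locus genes, the 7 genes with 1 locus moved between 0.96 points lower and 0.99 points higher. Depth and replicate spread are unknown, so how precise any level is was not tested. No paired analysis was possible because the results come from 1 library.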
